A study of Homo sapiens with 15 samples.

Results

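The genes described here are the matrix metalloproteinases (MMPs), the ADAMs, the ADAMTS proteases and the tissue inhibitors of metalloproteinases (TIMPs), taken as all genes whose symbol is MMP, ADAM or ADAMTS with a number, or TIMP1 to TIMP4. The rule found 55 of the 17237 genes measured, of which 49 were measured in CAKi-1, 50 in 786O and 44 in both. *TIMP3* was not analysed here. The rule reads symbols and no expression value, but the gene families were picked with earlier results of these data known. RNA sequencing was run on 2 human clear cell renal cell carcinoma (ccRCC) lines, CAKi-1 with 4 WT and 5 A4KO libraries and 786O with 3 WT and 3 A4KO libraries, where A4KO is a CRISPR knockout of *ANGPTL4*, a secreted inhibitor of lipoprotein lipase. CAKi-1 carries wild-type *VHL* and 786O mutant *VHL*, in every library of the line. A4KO cells of both lines are clones that lost *ANGPTL4* and were combined, and 786O WT cells are combined clones that kept it. For CAKi-1 WT, the series description gives combined clones and the study's methods give the parental line, so the clonal history of the cells and the loss of *ANGPTL4* cannot be told apart in that line. Cells of both genotypes were harvested untreated in log phase. Nothing states that the replicates came from separate cultures, so p-values measure only the spread between these libraries, which may be technical. Values are TPM, a relative abundance corrected for transcript length and for the size of the library.

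MMPs, ADAMs and ADAMTS proteases are zinc endopeptidases of one superfamily, the metzincins, and most are made as inactive proenzymes. Secreted MMPs cut collagens, gelatin, laminin and other matrix proteins, whereas membrane-type MMPs act at the cell surface and activate some of the secreted ones. ADAMs shed growth factors, cytokines and receptors from the membrane, ADAMTS proteases cut proteoglycans or trim procollagen in the matrix, and TIMPs bind the active site of these enzymes with differing preference. In kidney tumors, matrix turnover of this kind has been studied mainly for its part in invasion.

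*ANGPTL4*, the targeted gene, was at 71.7 to 86.9 TPM in the CAKi-1 WT libraries and 2.87 to 7.26 in A4KO, and at 17.6 to 20.6 and 1.86 to 2.19 TPM in 786O, so each library had the level its label implies. Among the CAKi-1 A4KO libraries, replicates 1 and 4 correlated with replicates 2, 3 and 5 at r = 0.988 to 0.991 over all genes, against 0.996 to 0.997 within these sets, and some values are also given below without replicates 1 and 4. The kidney epithelial markers had a summed level of 5305 to 6376 TPM in CAKi-1 WT, 2785 to 3711 in CAKi-1 A4KO, 5629 to 5830 in 786O WT and 4343 to 4394 in 786O A4KO, over 9 of 11 markers in CAKi-1 and 11 of 11 in 786O. *VIM*, which mesenchymal cells also express, led these sums at 3078 to 3297 TPM in CAKi-1 WT and 4426 to 4640 in 786O WT. *PAX8*, *KRT8* and *KRT18* were above 100 TPM in every library, whereas *LRP2* and *CUBN* had group means under 1 TPM in both lines. Of these, *KRT8* and *KRT18* fell in CAKi-1 A4KO, and in 786O A4KO *CA9* fell and *PAX2* rose. Fibroblast markers summed to 24.4 to 34.1 TPM in CAKi-1 WT and 48.4 to 72.7 in A4KO, where *COL1A1* rose and *LUM* was lower at -0.85, and to 10.3 to 14.2 and 8.97 to 11.5 in 786O. The 786O sum joins opposite changes, since *PDGFRB* rose from 0.354 to 0.491 TPM to 3.47 to 5.63 and *LUM* fell from 6.54 to 8.78 TPM to 1.15 to 1.40. Leukocyte markers summed to 56.1 to 60.0 TPM in CAKi-1 WT, 50.7 to 60.5 in CAKi-1 A4KO, 42.6 to 43.8 in 786O WT and 19.6 to 21.2 in 786O A4KO, with *CD68* the 1 marker above 1 TPM in a group mean. Endothelial markers summed to 0.209 to 0.555 TPM and 1.54 to 6.17 in CAKi-1 and to 1.09 to 1.58 and 0.536 to 0.588 in 786O. The defining markers *COL3A1*, *CD3E*, *CDH5* and *VWF* were not among the genes analysed here. The sums cover 6 and 5 of 7 fibroblast markers, 4 and 2 of 5 leukocyte markers and 1 and 2 of 4 endothelial markers in CAKi-1 and 786O. The part of these shifts in the results below was not tested.

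Each line was compared A4KO against WT on log2(TPM + 1), and a gene is said to have risen or fallen when the change was at least 1 on this scale with an adjusted p of at most 0.05. In CAKi-1, 6 members rose and 1 fell, which is 14.3% of the 49 measured. Over all genes of that line 3.33% changed, 2.21% upward and 1.12% downward. The 6 that rose are *MMP7*, *MMP9*, *MMP14*, *ADAMTS5*, *ADAMTS9* and *ADAMTS10*, and the 1 that fell is *ADAMTS15*. In 786O, 2 members rose and 7 fell, which is 18% of the 50 measured. The background in 786O was 7.62% of all genes, 2.43% upward and 5.19% downward. *MMP7* and *ADAMTS3* rose in 786O, and *MMP2*, *MMP19*, *ADAM12*, *ADAMTS5*, *ADAMTS12*, *ADAMTS15* and *TIMP4* fell. *MMP7* rose and *ADAMTS15* fell in both lines, while *ADAMTS5* rose in CAKi-1 and fell in 786O. With a pseudocount of 0.1 in place of 1, 15 members changed in 786O, 2 higher and 13 lower, where 12.9% of all genes changed. The members added were *MMP1*, *MMP9*, *MMP13*, *MMP17*, *ADAMTS13* and *ADAMTS14*.

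By the adjusted p alone, 24 members differed in CAKi-1, 12 higher and 12 lower, where 39.0% of all genes did so. In 786O 33 differed, 11 higher and 22 lower, where 61.0% of all genes did so. These shares of the members are 49% and 66%, not far above those of all genes. The median change of the members was 0.0036 in CAKi-1, beside -0.0078 over all genes, and -0.11 in 786O, beside -0.030. Many members were hardly expressed, with 14 of 49 in CAKi-1 and 19 of 50 in 786O under 1 TPM in the mean of both groups. The TPM + 1 scale compresses changes at such levels.

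**Figure D1:**
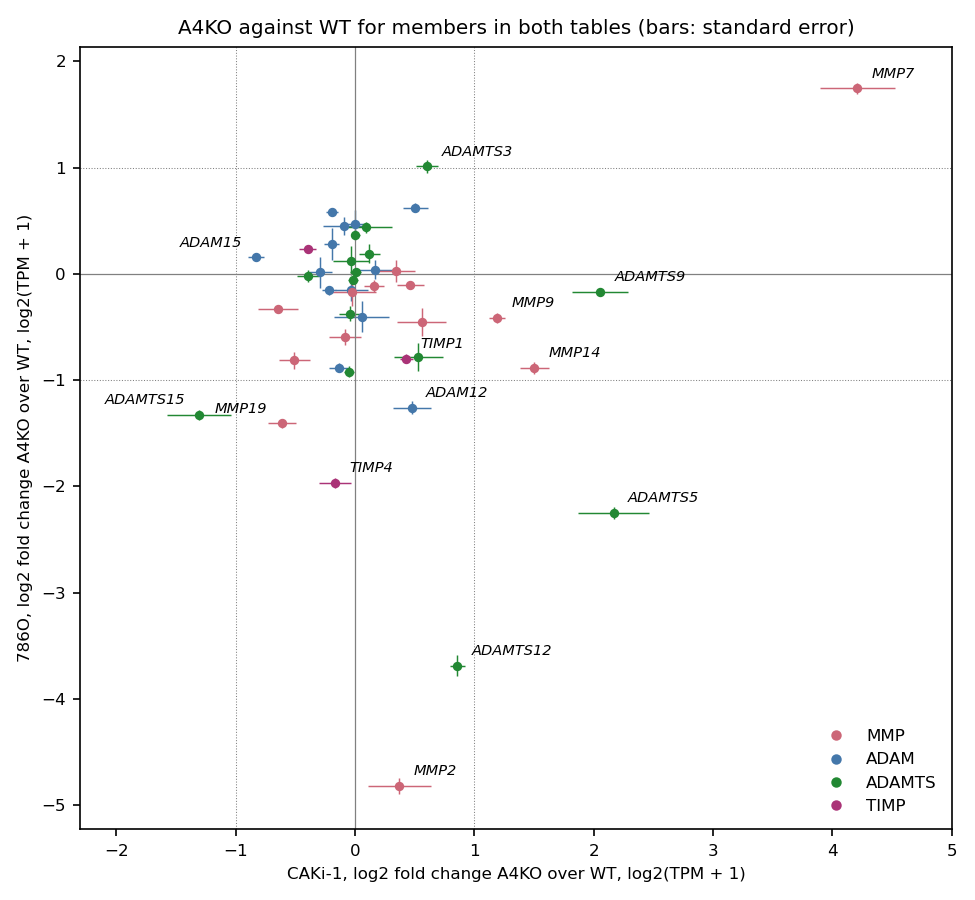
Change of each of the 44 members measured in both lines, as A4KO minus WT in log2(TPM + 1), with CAKi-1 on the horizontal and 786O on the vertical axis and bars for the SE. *MMP7* is the 1 member at least 1 above 0 in both lines, *ADAMTS15* lies below -1 in both, and *MMP2*, *ADAMTS12* and *ADAMTS5* lie far below 0 in 786O alone.

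Promoter sequence is shown for *MMP7*, the member that rose in both lines, *MMP14*, whose differences had opposite signs in the lines, and *ADAMTS12* and *TIMP4*, which fell to under 1 TPM in 786O. The sequences are the 250 bases before the RefSeq gene start in GRCh38.p14, written 5′ to 3′ on the strand of the gene. *MMP7* lies on the minus strand at chr11:102530748-102530997, *MMP14* on the plus strand at chr14:22836335-22836584, *ADAMTS12* on the minus strand at chr5:33891991-33892240 and *TIMP4* on the minus strand at chr3:12158913-12159162. Capitals mark matches to TGANTCA, a looser form of the AP-1 element TGAGTCA, to TATAAA, the TATA box, and to GGGCGG, the GC box bound by Sp factors.
MMP7: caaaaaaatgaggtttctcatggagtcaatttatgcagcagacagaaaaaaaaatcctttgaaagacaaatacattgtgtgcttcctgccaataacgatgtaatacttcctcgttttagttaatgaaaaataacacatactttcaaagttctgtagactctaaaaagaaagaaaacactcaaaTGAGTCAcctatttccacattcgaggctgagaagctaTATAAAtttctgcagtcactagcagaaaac
MMP14: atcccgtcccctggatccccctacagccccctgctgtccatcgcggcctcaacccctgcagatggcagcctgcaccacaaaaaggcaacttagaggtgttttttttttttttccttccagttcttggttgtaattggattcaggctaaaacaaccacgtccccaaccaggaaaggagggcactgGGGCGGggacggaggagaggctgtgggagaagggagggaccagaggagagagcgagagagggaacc
ADAMTS12: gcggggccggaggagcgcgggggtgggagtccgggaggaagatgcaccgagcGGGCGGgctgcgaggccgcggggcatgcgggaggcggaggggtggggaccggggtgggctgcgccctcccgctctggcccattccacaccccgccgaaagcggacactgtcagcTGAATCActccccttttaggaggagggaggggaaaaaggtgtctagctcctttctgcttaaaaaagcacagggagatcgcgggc
TIMP4: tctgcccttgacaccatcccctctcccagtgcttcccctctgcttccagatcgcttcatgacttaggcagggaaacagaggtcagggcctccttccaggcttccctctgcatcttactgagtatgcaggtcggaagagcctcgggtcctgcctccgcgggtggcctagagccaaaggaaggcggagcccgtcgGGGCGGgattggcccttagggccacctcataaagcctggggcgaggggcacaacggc

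Matches to these letters were searched on both strands of the 250 bases before the start, and none of those shown overlap. *MMP7* holds TGAGTCA 67 to 61 bases before its start and TATAAA at 30 to 25 bases. *ADAMTS12* holds TGAATCA 84 to 78 bases before its start and a GC box at 198 to 193. *MMP14* and *TIMP4* each hold 1 GC box, at 66 to 61 and at 57 to 52 bases. RefSeq windows were found for 31 of the 55 members, in 32 windows. TGANTCA occurred in 4 of them, *MMP7*, *ADAMTS12*, *MMP10* and *MMP20*, which is 12.5%, against 6.57% of 35116 windows of all genes. The AP-1 element TGAGTCA itself was in *MMP7* alone, 3.12% of the members' windows against 4.2% of all, and TGAATCA was in the other 3. TATAAA occurred in 15.6% of the members' windows against 10.7% of all, and GGGCGG in 71.9% against 42.6%. A match describes letters and is not evidence of binding.

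*MMP7* encodes matrilysin, a small secreted protease of epithelia that cuts laminin, fibronectin and E-cadherin. On the log2(TPM + 1) scale it had the largest rise of the members in CAKi-1, while the ratio of mean TPM was larger for *ADAMTS5*, at 46.6-fold from WT levels under 1 TPM. The WT libraries held 5.69, 3.90, 8.17 and 9.64 TPM and the A4KO libraries 75.6, 205, 169, 115 and 165, so that the lowest A4KO library was well above the highest WT library. The change was 4.21 (SE 0.31, adjusted p = 2.52e-05), which in mean TPM is a 21.3-fold higher level. The lowest of these libraries were A4KO replicates 1 and 4, and without them the change was 4.58. In 786O, WT held 6.03, 6.85 and 6.74 TPM and A4KO 24.2, 24.8 and 23.8, a rise of 1.75 (SE 0.053, adjusted p = 2.12e-06). The WT means were 6.85 and 6.54 TPM in the 2 lines, and the 786O effect minus the CAKi-1 effect was -2.46 (SE 0.41, adjusted p = 1.79e-04).

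*MMP2* and *MMP9* encode the gelatinases, which degrade denatured collagen and the collagen of basement membranes. In 786O, *MMP2* was at 202, 191 and 191 TPM in WT and 6.24, 5.24 and 6.42 in A4KO, a change of -4.82 (SE 0.074, adjusted p = 2.36e-07). This was the largest change of any member in that line on the log2(TPM + 1) scale. In CAKi-1, *MMP2* was at 39.0, 37.8, 38.8 and 37.2 TPM in WT and 75.3, 41.5, 31.4, 80.2 and 38.3 in A4KO. Replicates 1 and 4 lay above the WT libraries and the other 3 around them, and the difference of 0.37 (SE 0.27, adjusted p = 0.298) did not pass the test. With replicates 2, 3 and 5 alone it was -0.051. *MMP9* was low in both lines. In CAKi-1 it was at 1.51, 1.83, 1.94 and 1.95 TPM in WT and 5.26, 5.57, 5.09, 5.96 and 5.11 in A4KO, 2 tight groups that differed by 1.19 (SE 0.066, adjusted p = 5.28e-06). Every 786O library held under 1 TPM, and A4KO was lower at -0.42 (SE 0.049, adjusted p = 4.85e-04), a difference that a pseudocount of 0.1 in place of 1 widened to -1.37 and taking off the median of neighbouring genes to -0.73.

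*MMP14* encodes the membrane-type protease MT1-MMP, which cuts fibrillar collagen at the cell surface and, with TIMP2, activates pro-MMP2. It was the most abundant MMP in both lines. In CAKi-1 the WT libraries held between 93.8 and 106 TPM, 99.8 ± 4.89 (SD, n = 4), and the A4KO libraries 332, 272, 253, 349 and 234. The groups were far apart, with a rise of 1.5 (SE 0.12, adjusted p = 3.22e-05), or 1.33 without replicates 1 and 4. In 786O, WT held 344, 348 and 364 TPM and A4KO 199.8, 195 and 177. The groups did not overlap here either, and the difference of -0.88 (SE 0.056, adjusted p = 3.48e-05) stayed under the size required. *MMP14* lies on chromosome 14 (chr14:22836560-22849041, hg38), where the median change over 361 expressed genes was -0.77 in 786O. With the median of neighbouring genes taken off in each library, the *MMP14* difference in 786O was -0.10 (SE 0.067, adjusted p = 0.243).

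The other membrane-anchored members did not reach the size required in either line in the main fit. *MMP17*, named after its values were seen, did so in 786O with a pseudocount of 0.1. It was at 1.51 to 1.91 TPM in WT and 0.66 to 0.938 in A4KO there. *MMP24* (MT5-MMP) was at 16.4, 12.2, 12.8 and 9.52 TPM in CAKi-1 WT and 5.87, 8.01, 9.81, 6.55 and 8.48 in A4KO, with overlapping groups and a difference of -0.65 (SE 0.17, adjusted p = 0.0132). In 786O it was at 49.4, 46.0 and 47.9 TPM in WT and 37.6, 37.6 and 37.7 in A4KO, lower at -0.33, or at -0.62 with neighbouring genes taken off. Of the 6 membrane-anchored members, 2 were higher and 1 lower in CAKi-1 by the adjusted p alone, and 5 were lower in 786O, where 39.0% and 61.0% of all genes passed in either direction.

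Among the remaining secreted MMPs, *MMP19*, a protease of basement membrane components, was at 1.64, 1.82 and 1.75 TPM in 786O WT and 0.0640, 0.0107 and 0.0217 in A4KO, nearly no transcript. The change was -1.41 (SE 0.043, adjusted p = 2.13e-06) and reached -3.82 with a pseudocount of 0.1. In CAKi-1 it was at 2.19, 2.17, 2.08 and 3.39 TPM in WT and 1.43, 1.19, 0.988, 1.51 and 1.12 in A4KO, lower at -0.61 (SE 0.12, adjusted p = 0.00316) with no overlap. The collagenase genes *MMP1* and *MMP13*, chosen for mention after their values were seen, had means of at most 1.84 TPM in any group. *MMP1* was lower at -0.51 in CAKi-1 and at -0.81 in 786O, where *MMP13* was lower at -0.71 (adjusted p = 0.00225). Both collagenase genes fell in 786O by the full rule with a pseudocount of 0.1. The stromelysins *MMP3* and *MMP10* were each measured in 1 line, under 1 TPM, and passed no test. *MMP7*, *MMP20*, *MMP10*, *MMP1*, *MMP3* and *MMP13* form a cluster on chromosome 11 in which *MMP7* and *MMP1* start 267.4 kb apart. *MMP7* was the 1 gene of this cluster above 2 TPM in any group mean.

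**Figure D2:**
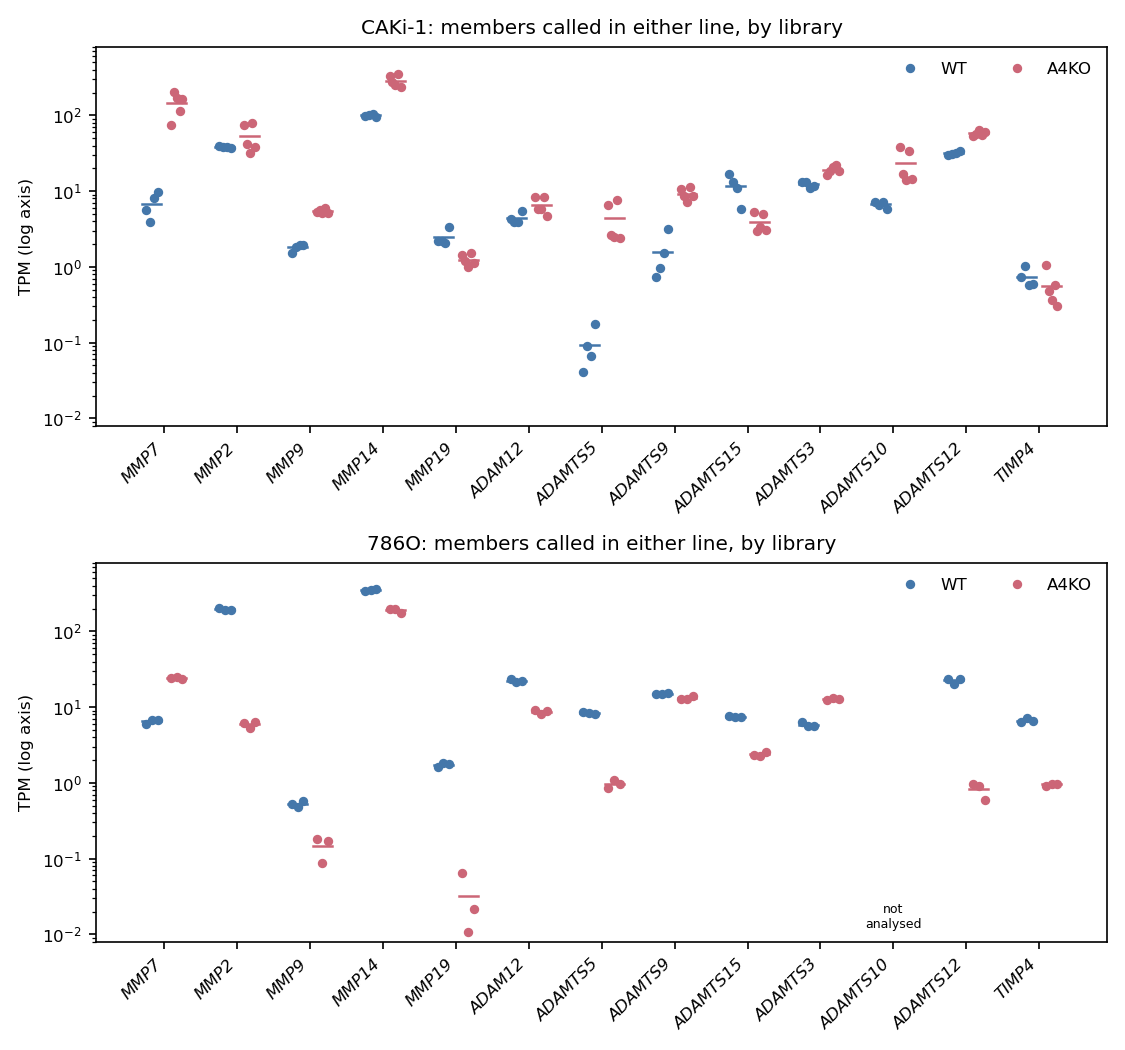
TPM of each library on a log axis for the members that rose or fell in either line, with WT and A4KO side by side in each line and a bar at the group mean. In CAKi-1 *MMP7* moved from 3.90 to 9.64 TPM up to 75.6 to 205, and in 786O *MMP2* moved from 191 to 202 TPM down to 5.24 to 6.42.

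Of the ADAMTS proteases, 4 of 18 changed in CAKi-1 (22.2%, beside 3.33% of all genes) and 4 of 15 in 786O (26.7%, beside 7.62%). *ADAMTS5*, *ADAMTS9*, *ADAMTS1* and *ADAMTS15* are proteoglycanases that cut aggrecan or versican. *ADAMTS5* was at 0.0408, 0.0899, 0.0673 and 0.178 TPM in CAKi-1 WT and 6.61, 2.67, 2.48, 7.73 and 2.38 in A4KO, a change from nearly no transcript. The rise was 2.17 (SE 0.30, adjusted p = 5.74e-04), or 4.39 with a pseudocount of 0.1 and 1.68 without replicates 1 and 4. The 786O libraries held 8.64, 8.27 and 8.11 TPM in WT and 0.844, 1.08 and 0.979 in A4KO. This was a change of -2.25 (SE 0.054, adjusted p = 1.05e-06), so the order of the genotypes was reversed between the lines. *ADAMTS9* was at 0.735, 0.974, 1.51 and 3.15 TPM in CAKi-1 WT and 10.5, 8.59, 7.26, 11.3 and 8.53 in A4KO, a rise of 2.05 (SE 0.24, adjusted p = 2.34e-04) with no overlap. In 786O it held 15, 14.8 and 15.3 TPM in WT and 13, 12.9 and 13.8 in A4KO, lower at -0.17 (SE 0.041, adjusted p = 0.0112), or 0.076 (adjusted p = 0.195) with the median of neighbouring genes taken off.

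*ADAMTS15* was at 16.9, 13.1, 10.8 and 5.88 TPM in CAKi-1 WT and 5.38, 3.01, 3.32, 4.96 and 3.05 in A4KO. The lowest WT library lay close to the highest A4KO library, and the change was -1.30 (SE 0.27, adjusted p = 0.00454). The 786O libraries held 7.58, 7.5 and 7.48 TPM in WT and 2.36, 2.25 and 2.58 in A4KO, a change of -1.33 (SE 0.046, adjusted p = 3.39e-06). With neighbouring genes taken off, the change in 786O was -0.81 and no longer reached the size required. *ADAMTS1*, which lies 121.7 kb from *ADAMTS5* on chromosome 21, did not reach the size required in either line. It was at 31.9, 34.6, 31.9 and 32.9 TPM in CAKi-1 WT and 22, 39.6, 50.4, 27.5 and 43.8 in A4KO, spread on both sides of WT, with a difference of 0.094 (SE 0.22, adjusted p = 0.762). Replicates 1 and 4 were below all WT libraries, and without them the difference was 0.42 (SE 0.081, adjusted p = 0.00536). In 786O *ADAMTS1* was at 51.4, 54.5 and 51.1 TPM in WT and 68.7, 69.8 and 75.3 in A4KO, higher by 0.44 (SE 0.051, adjusted p = 4.64e-04).

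*ADAMTS12*, which cuts cartilage oligomeric matrix protein, was at 23.5, 20.4 and 23.7 TPM in 786O WT and 0.974, 0.914 and 0.599 in A4KO. Its change of -3.69 (SE 0.099, adjusted p = 1.45e-06) was second to that of *MMP2* in the line on this scale. In CAKi-1 it was at 30.2, 30.5, 32.1 and 34.3 TPM in WT and 54.0, 57.6, 64.6, 55.2 and 61.1 in A4KO, higher by 0.86 (SE 0.067, adjusted p = 3.03e-05) without overlap. *ADAMTS10*, a protease of fibrillin microfibrils measured in CAKi-1 alone, was at 7.25, 6.52, 7.29 and 5.78 TPM in WT and 37.8, 16.9, 13.9, 34.1 and 14.4 in A4KO. It rose by 1.54 (SE 0.30, adjusted p = 0.00367), and by 1.06 without the high replicates 1 and 4. *ADAMTS3*, which removes the N-propeptide of procollagen, was at 6.42, 5.57 and 5.66 TPM in 786O WT and 12.3, 13.4 and 12.9 in A4KO. Its rise of 1.01 (SE 0.060, adjusted p = 2.56e-05) was just past the size required. It was 0.55 with neighbouring genes taken off, and 0.98 to 0.99 without WT replicate 2, WT replicate 3 or A4KO replicate 2. In CAKi-1 it was at 13.1, 13.2, 11.2 and 11.7 TPM in WT and 16.2, 18.6, 20.7, 22.4 and 18.5 in A4KO, higher by 0.60 (SE 0.093, adjusted p = 0.00103).

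None of the 14 ADAMs measured in CAKi-1 rose or fell in the limma fit, beside 3.33% of all genes, and 8 had an unadjusted p under 0.05. By the adjusted p alone 2 were higher and 6 lower there, which is 57.1% beside 39.0% of all genes. In 786O 1 of 15 fell, which is 6.67% beside 7.62% of all genes that changed. That gene was *ADAM12*, a sheddase of EGF-family ligands, at 23.4, 21.3 and 22.3 TPM in WT and 9.21, 8.03 and 8.95 in A4KO, a change of -1.26 (SE 0.061, adjusted p = 1.18e-05). In CAKi-1 it held 4.26, 3.94, 3.90 and 5.46 TPM in WT and 8.26, 5.88, 5.90, 8.24 and 4.64 in A4KO. These groups overlapped, and the difference was 0.48 (SE 0.16, adjusted p = 0.039). It was 0.27 (adjusted p = 0.116) without replicates 1 and 4, and 0.69 (SE 0.15, adjusted p = 0.0077) with neighbouring genes taken off.

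*ADAM10*, the main sheddase of Notch and E-cadherin, was at 160.0, 157, 152 and 150.1 TPM in CAKi-1 WT and 237, 192, 194, 278 and 210.5 in A4KO, higher by 0.51 (SE 0.11, adjusted p = 0.00512). The 786O libraries held 220.3, 231 and 225 TPM in WT and 351, 358 and 332 in A4KO, higher by 0.62 (SE 0.044, adjusted p = 5.16e-05), or by 0.35 with neighbouring genes taken off. The effects of the 2 lines differed by 0.12 (SE 0.14, adjusted p = 0.513), which did not pass the test, and without CAKi-1 A4KO replicates 1 and 4 by 0.26 (SE 0.066, adjusted p = 0.00439). *ADAM17*, which releases TNF and EGF-family ligands, was at 21.7, 25.7, 32.1 and 36.0 TPM in CAKi-1 WT and 29.3, 29.9, 19.3, 25.2 and 30.6 in A4KO. Its groups overlapped in part, with a difference of -0.094 (SE 0.17, adjusted p = 0.700). For 786O the levels were 28.2, 32.8 and 26.9 TPM in WT and 39.2, 43.2 and 38.2 in A4KO, higher by 0.45 (SE 0.085, adjusted p = 0.00431), or by 0.22 (adjusted p = 0.0694) with neighbouring genes taken off.

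Other abundant ADAMs differed by less than the size required. *ADAM15* was at 112 to 120.5 TPM in CAKi-1 WT and 59.3 to 71.1 in A4KO, lower at -0.83 (SE 0.067, adjusted p = 3.59e-05), and at 77.9 to 82.2 and 87.9 to 89.3 in 786O, higher by 0.15. *ADAM9* was at 175 to 189.8 TPM in CAKi-1 WT and 148 to 166 in A4KO, lower at -0.19 (SE 0.050, adjusted p = 0.0135), and at 149 to 152 and 222 to 227 in 786O, higher by 0.58 (SE 0.032, adjusted p = 2.00e-05). *ADAM19* was at 11.9 to 13.3 TPM in CAKi-1 WT and 9.53 to 12.5 in A4KO, with an adjusted p of 0.221, and at 21.2 to 22.4 and 11.1 to 11.8 in 786O, lower at -0.88 (SE 0.042, adjusted p = 1.07e-05). All 3 are membrane-anchored sheddases with an active zinc site.

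Of the inhibitors, *TIMP1*, which acts on most secreted MMPs and poorly on membrane-type ones, was at 246, 229, 237 and 249 TPM in CAKi-1 WT and 341, 326, 318, 334 and 299 in A4KO. The groups did not overlap, and the difference was 0.43 (SE 0.054, adjusted p = 3.66e-04). The 786O libraries held 299, 276 and 288 TPM in WT and 161, 164 and 170.1 in A4KO, lower at -0.80 (SE 0.045, adjusted p = 2.00e-05). *TIMP2*, which also takes part in the activation of pro-MMP2 by MT1-MMP, went the other way in each line. It was at 454, 432, 422 and 411 TPM in CAKi-1 WT and 355, 306, 299, 364 and 311 in A4KO, lower at -0.40 (SE 0.072, adjusted p = 0.00253). In 786O it was at 104, 99.8 and 101 TPM in WT and 122, 118 and 120.5 in A4KO, higher by 0.24 (SE 0.037, adjusted p = 0.00167), or by 0.10 (adjusted p = 0.0402) with neighbouring genes taken off. *TIMP4* was the 1 inhibitor that changed by the full rule. It was at 6.34, 7.09 and 6.5 TPM in 786O WT and 0.914, 0.974 and 0.976 in A4KO, a change of -1.97 (SE 0.048, adjusted p = 1.09e-06). In CAKi-1 it was at 0.731, 1.03, 0.574 and 0.589 TPM in WT and 1.05, 0.483, 0.368, 0.570 and 0.309 in A4KO, overlapping levels around or under 1 TPM with a difference of -0.17 (SE 0.13, adjusted p = 0.361), or -0.31 (adjusted p = 0.0386) without replicates 1 and 4.

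Summed over family members, the MMP level was 175 ± 6.69 TPM (SD, n = 4) in CAKi-1 WT and 518 ± 45.7 (SD, n = 5) in A4KO. In 786O it was 622 ± 9.52 TPM (SD, n = 3) in WT and 273 ± 12.8 (SD, n = 3) in A4KO. WT 786O thus held more MMP transcript than either genotype of CAKi-1, although the tables were made separately and this level was not tested. *MMP14* made up 57.2% of the sum in CAKi-1 WT and 55.4% in A4KO, while *MMP7* went from 3.93% to 28.5%. In 786O *MMP2* went from 31.3% to 2.19% of the sum and *MMP7* from 1.05% to 8.91%, while *MMP14*, whose difference there was -0.10 with neighbouring genes taken off, went from 56.5% to 69.8%. Without *MMP14*, a sum added after the values were seen, the MMP level was 264 to 279.8 TPM in 786O WT and 81.4 to 83.4 in A4KO, and 70.7 to 77.5 and 182.5 to 277 in CAKi-1. A sum is led by its most abundant members, so it counts transcripts and not enzyme activity.

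The TIMP sum was 671 ± 19.8 TPM (SD, n = 4) in CAKi-1 WT and 651 ± 43.4 (SD, n = 5) in A4KO, with overlapping ranges. In 786O it was 396 ± 13.1 TPM (SD, n = 3) in WT and 286 ± 4.86 (SD, n = 3) in A4KO. The ratio of the TIMP sum to the MMP sum ran from 3.60 to 3.98 in CAKi-1 WT and from 1.15 to 1.36 in A4KO. In 786O it ran from 0.626 to 0.657 in WT and from 1.0 to 1.13 in A4KO. The ratio was thus lower in every A4KO library than in every WT library of CAKi-1, higher in every one of 786O, and near 1 in A4KO of both lines. Without *MMP14* the ratio kept these directions, at 8.51 to 9.36 and 2.29 to 3.82 in CAKi-1 and at 1.45 to 1.48 and 3.403 to 3.58 in 786O, and was not near 1 in A4KO. The ADAM sum was 512 ± 7.76 TPM (SD, n = 4) and 502 ± 31.9 (SD, n = 5) in CAKi-1, and 537 ± 3.91 (SD, n = 3) and 730 ± 17.1 (SD, n = 3) in 786O. The ADAMTS sum was 105 ± 3.68 TPM (SD, n = 4) and 165 ± 7.43 (SD, n = 5) in CAKi-1, and 121 ± 0.781 (SD, n = 3) and 108 ± 4.00 (SD, n = 3) in 786O, WT first.

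**Figure D3:**
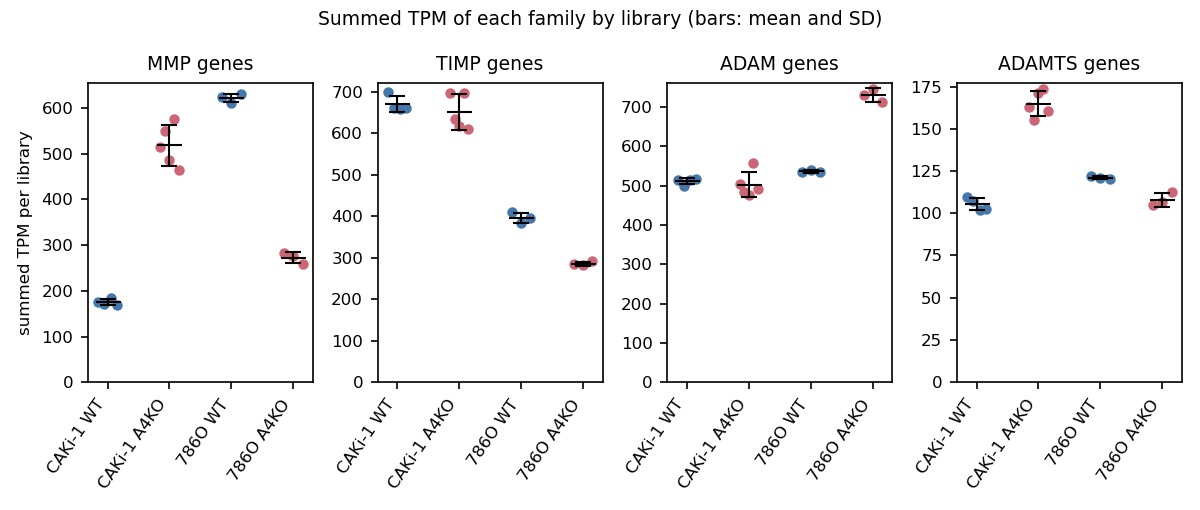
Summed TPM of the MMP, TIMP, ADAM and ADAMTS members in each library, by line and genotype, with the mean and SD of each group. The MMP sum is 168.2 to 183.3 TPM in CAKi-1 WT against 465.1 to 577.1 in A4KO, and 612.1 to 631 in 786O WT against 258.5 to 283.2 in A4KO.

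The difference of the A4KO effect between the lines was tested with an interaction term over the genes measured in both. Of the 44 members, 12 differed by at least 1 with an adjusted p of at most 0.05, which is 27.3%, against 12.8% of all genes. All 12 had the lower effect in 786O, a direction in which 7.95% of all genes were called. By the adjusted p alone 26 members differed, 8 higher and 18 lower, where 55.1% of all genes did so. With a pseudocount of 0.1 and the size rule kept there were 17, 2 higher and 15 lower, where 19.7% of all genes were called. The widest were *MMP2* at -5.19 (SE 0.35), *ADAMTS12* at -4.55 (SE 0.12) and *ADAMTS5* at -4.42 (SE 0.39). *MMP14* differed by -2.39 (SE 0.16, adjusted p = 3.48e-08), and still by -1.55 with neighbouring genes taken off. *TIMP1* differed by -1.23 and *TIMP4* by -1.80. CAKi-1 WT held 0.574 to 1.035 TPM of *TIMP4*, a level at which log2(TPM + 1) could not show a fall like that in 786O. *ADAMTS13*, the protease of von Willebrand factor, at -1.32, and *MMP25*, at -1.02, are named after their values were seen, since they differed between the lines while changing in neither by the full rule of the main fit. *ADAMTS13*, at -0.79 in 786O, did fall there by the full rule with a pseudocount of 0.1 and with neighbouring genes taken off. *MMP25* no longer reached the size required with quantile normalization, at -0.69, or without CAKi-1 A4KO replicates 1 and 4, at -0.72. It was also short of it, at -0.90 to -0.97, when CAKi-1 WT replicate 4, CAKi-1 A4KO replicate 1 or 4, 786O WT replicate 1 or 786O A4KO replicate 2 or 3 was left out alone.

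Over the 44 members, the changes in the 2 lines had a Pearson r of 0.058 and a Spearman rho of -0.030, which describes genes and not replicates. Of the 19 members past the adjusted p in both lines, 3 were higher in both, 5 lower in both and 11 opposite, which is 57.9%. Over all genes, 2437 of 4271 were opposite, or 57.1%. The 3 higher in both were *ADAM10*, *ADAMTS3* and *MMP7*. The 5 lower in both were *ADAM21*, *ADAMTS15*, *MMP1*, *MMP19* and *MMP24*, of which *ADAM21* was under 1 TPM in each group. The 11 opposite were *ADAM9*, *ADAM12*, *ADAM15*, *ADAMTS5*, *ADAMTS9*, *ADAMTS12*, *MMP9*, *MMP14*, *MMP15*, *TIMP1* and *TIMP2*. In 786O, *MMP14* at -0.10 (adjusted p = 0.243) and *ADAMTS9* at 0.076 (adjusted p = 0.195) no longer passed with neighbouring genes taken off. The share moving in opposite directions was thus near that of all genes.

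The genes that activate, inhibit, partner or regulate these proteases were examined as 5 lists of 58 genes. In CAKi-1, 6 of the 54 measured rose and 2 fell (14.8%, beside 3.33% of all genes). In 786O, 2 of the 51 measured rose and 12 fell (27.5%, beside 7.62% of all genes). The difference of effects passed the same interaction test for 15 of the 51 genes measured in both lines, 3 higher and 12 lower in 786O, which is 29.4% beside 12.8% of all genes. *ETV1*, 1 of the 15, was short of the size required in 9 alternatives.

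The list of activators covers plasminogen activation, which turns on several pro-MMPs, and the proprotein convertases, which cut the propeptides of membrane-type MMPs and ADAMs. *PLAU*, the urokinase plasminogen activator, was at 424, 459, 536 and 576 TPM in CAKi-1 WT and 191, 208, 237, 191 and 218 in A4KO, a change of -1.25 (SE 0.10, adjusted p = 3.97e-05). It also fell in 786O, from 70.3 to 72.3 TPM down to 29.8 to 31.7, a change of -1.19 (SE 0.039, adjusted p = 2.83e-06). *PLAT*, the tissue plasminogen activator, fell in 786O from 2.65 to 3.58 TPM to 0.478 to 0.593. The change was -1.44 (SE 0.090), or -2.35 with a pseudocount of 0.1, and in CAKi-1 its groups overlapped at 10.9 to 14.8 and 9.52 to 12.5 TPM. The convertase *FURIN* rose in 786O from 19.8 to 20.4 TPM to 44.8 to 47.1, by 1.15 (SE 0.037, adjusted p = 2.77e-06), and in CAKi-1 it was at 32.8 to 33.6 and 46.2 to 51.1 TPM, higher by 0.54. *PCSK5*, another convertase, rose in 786O from 20.5 to 21.2 TPM to 52.9 to 53.8, by 1.32 (SE 0.034), and was at 1.17 to 1.5 and 0.658 to 1.18 TPM in CAKi-1.

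Among the other inhibitors and cofactors, 3 of 14 rose in CAKi-1, beside 2.21% of all genes, and 5 of 12 fell in 786O, beside 5.19%. *TFPI2*, a Kunitz inhibitor of plasmin, rose in CAKi-1 from 64.5 to 89.8 TPM to 303 to 472, by 2.24 (SE 0.15, adjusted p = 1.51e-05), and was lower at -0.25 in 786O, at 74.5 to 81.2 and 62.6 to 69.0 TPM. *PAPLN*, papilin, an ADAMTS-like matrix protein, went from 0.876 to 1.72 TPM to 5.58 to 15.5 in CAKi-1, a rise of 2.17 (SE 0.29), and from 18.9 to 21.0 TPM to 4.74 to 6.07 in 786O, a change of -1.75 (SE 0.087). It lies on chromosome 14, and with neighbouring genes taken off its change was -0.94. *ADAMTSL1* rose in CAKi-1 from 6.03 to 7.67 TPM to 22.8 to 43.6, by 2.0 (SE 0.22). The fallers in 786O beside *PAPLN* were *RECK*, a membrane-anchored MMP inhibitor, at -1.04 (SE 0.051), *SPOCK1*, a testican, at -1.38 (SE 0.066), *PCOLCE2*, an enhancer of procollagen processing, at -2.32 (SE 0.10), and *THSD4* at -1.24 (SE 0.090). The change of *RECK* was below the size required with quantile normalization, at -0.88, and with neighbouring genes taken off, at -0.65. *RECK* was at 10.6 to 10.8 TPM in 786O WT and 4.47 to 5.08 in A4KO, and at 8.80 to 10.1 and 7.61 to 9.88 in CAKi-1, where its groups overlapped. In CAKi-1 *PCOLCE2*, *SPOCK1* and *THSD4* were also lower, without overlap, at -0.95 (adjusted p = 0.00197), -0.76 (adjusted p = 5.56e-04) and -0.63 (adjusted p = 0.00764). *PCOLCE2* reached the size required there under some alternatives, as at -1.03 with a pseudocount of 0.1. By the adjusted p alone, 3 of this list were higher and 6 lower in CAKi-1, or 64.3% beside 39.0% of all genes. In 786O 1 was higher and 11 lower, or 100% beside 61.0%.

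Of the partners of ADAM10 and ADAM17, which carry them to the surface or choose their substrates, none of 9 rose or fell in the limma fit of CAKi-1, where 3.33% of all genes did, and 2 fell in 786O, beside 5.19% of all genes. In CAKi-1 8 of the 9 had an unadjusted p under 0.05, as did 7878 of all 16296 genes. By the adjusted p alone 2 were higher and 5 lower in CAKi-1, and 5 higher and 2 lower in 786O, which is 77.8% in each line beside 39.0% and 61.0% of all genes. *TSPAN5* was at 36.2 to 37.0 TPM in 786O WT and 11.5 to 12 in A4KO, a change of -1.56 (SE 0.035, adjusted p = 8.57e-07). *TSPAN15* was at 25.7 to 28.4 and 8.15 to 8.84 TPM, a change of -1.53 (SE 0.054, adjusted p = 3.72e-06). Both are tetraspanins that bind ADAM10. In CAKi-1 *TSPAN5* was lower at -0.88, at 14.5 to 17.9 and 6.74 to 9.95 TPM, and *TSPAN15* higher by 0.61, at 17.9 to 22.1 and 25.8 to 36.1.

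AP-1 and ETS factors bind many MMP promoters, and 2 of 12 changed in each line, which is 16.7% beside 3.33% of all genes in CAKi-1 and 7.62% in 786O. *FOSL1* was at 284, 326, 299 and 298 TPM in CAKi-1 WT and 53.3, 119, 164, 53.8 and 144 in A4KO, lowest in replicates 1 and 4. The change was -1.64 (SE 0.34, adjusted p = 0.00511), or -1.09 without those replicates. *FOSL2* was at 58.4, 62.2, 72.0 and 92.1 TPM in CAKi-1 WT and 165, 129, 120.5, 173 and 128 in A4KO, a rise of 1.0 (SE 0.16, adjusted p = 0.00107) that stood at the limit. It was 0.92 to 0.95 without WT replicate 1, WT replicate 2, A4KO replicate 1 or A4KO replicate 4, and 0.83 without both of these A4KO replicates. In 786O *FOS* fell from 70.4 to 78.4 TPM to 24.9 to 27.4, a change of -1.5 (SE 0.059, adjusted p = 5.57e-06), and *FOSB* from 6.88 to 7.77 TPM to 1.54 to 2.34, a change of -1.49 (SE 0.10). *FOS* lies on chromosome 14, and with neighbouring genes taken off its change was -0.74. The CAKi-1 WT libraries held 0.641 to 0.806 TPM of *FOS* and 0.546 to 1.35 of *FOSB*, and both genes had overlapping groups there. *FOSL1* in 786O was at 153 to 162 and 146 to 154 TPM, with an adjusted p of 0.117.

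The other metzincins are relatives outside the rule. *BMP1*, the procollagen C-proteinase, rose in CAKi-1 from 35.2 to 38.9 TPM to 77.4 to 115, by 1.35 (SE 0.11, adjusted p = 4.34e-05), and was at 45.6 to 48.7 and 42.9 to 43.9 TPM in 786O, lower at -0.12. *PAPPA*, which cuts IGF-binding proteins, rose in CAKi-1 from 0.860 to 3.62 TPM to 8.44 to 15.2, by 2.20 (SE 0.29, adjusted p = 4.72e-04), and was at 0.945 to 1.08 and 0.556 to 0.744 TPM in 786O, lower at -0.31 (adjusted p = 0.00339) without overlap, or at -0.61 with neighbouring genes taken off. *TLL2*, a relative of *BMP1*, fell in 786O from 8.48 to 9.63 TPM to 1.84 to 2.11, a change of -1.75 (SE 0.060), and was under 1 TPM in CAKi-1. These 3 were the changed genes of the list.

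**Figure D4:**
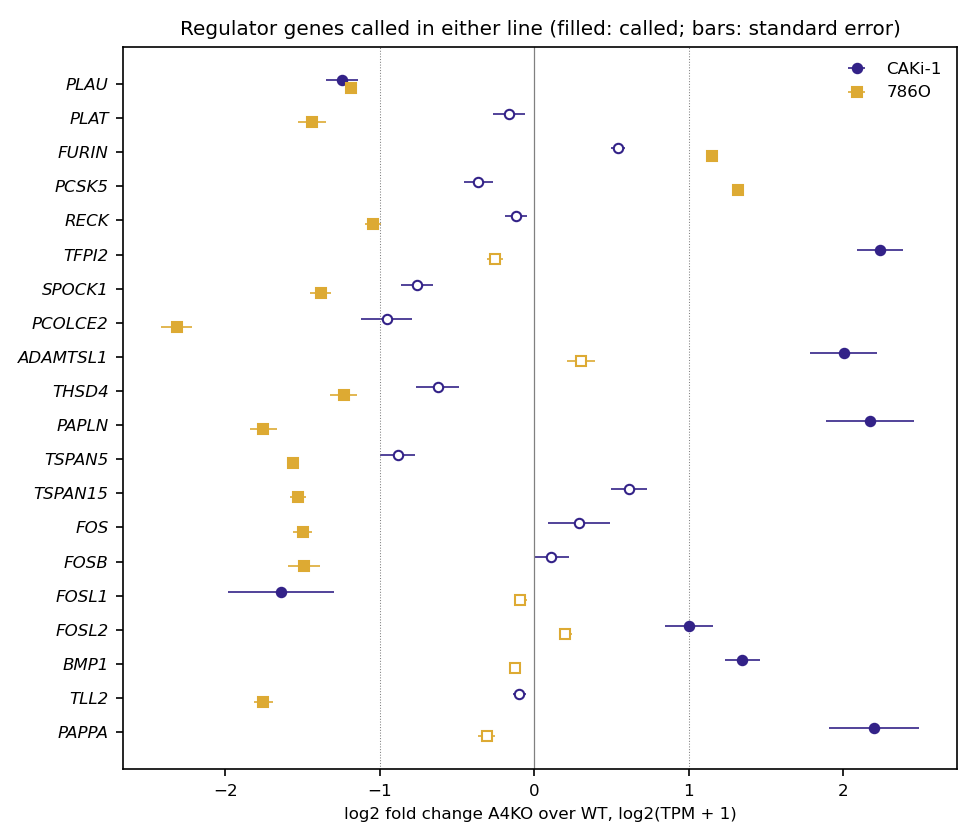
Change, A4KO minus WT in log2(TPM + 1) with its SE, of the activators, inhibitors, partners, factors and related proteases that rose or fell in either line, with both lines side by side and filled symbols for a gene that rose or fell in that line. *PLAU* lies near -1.2 in both lines, whereas *PAPLN* lies at 2.17 in CAKi-1 and at -1.75 in 786O.

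The median change of the genes of a chromosome differed between chromosomes in 786O. Beside chromosome 14 at -0.77, the median change of expressed genes was 0.50 on chromosome 13 and 0.34 on chromosome 16, against -0.025 over 11065 genes. In CAKi-1 the median was -0.23 on chromosome 10 and -0.21 on chromosome 11, against -0.046 over all. *MMP2* lies on chromosome 16, whose genes were on balance higher in 786O A4KO, and its change with neighbouring genes taken off was -5.1. On the same footing the change was -3.64 for *ADAMTS12*, -2.24 for *ADAMTS5*, -1.67 for *TIMP4*, -1.48 for *MMP19*, -1.42 for *ADAM12* and 2.11 for *MMP7*. *ADAMTS15* and *ADAMTS3* no longer reached a change of 1. A difference between the clone pools by chromosome and the loss of *ANGPTL4* cannot be told apart in this design.

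**Figure D5:**
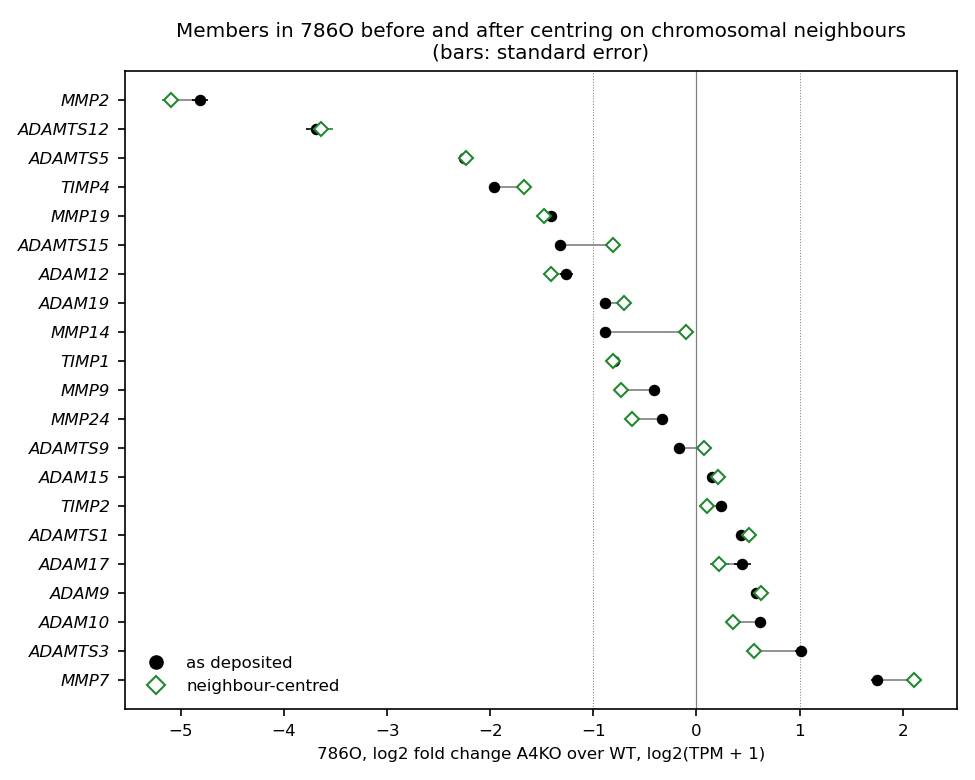
Change of the named members in 786O, A4KO minus WT in log2(TPM + 1), as measured and after the median of up to 25 expressed genes on each side was taken off in each library. *MMP14* moves from -0.88 to -0.10, and *MMP2* stays near -5.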

How the data were processed

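Poly(A) RNA of 15 libraries was sequenced as 150-base paired-end reads at a stated 3000000 reads per sample. Per the submitters' processing notes, the authors used kallisto, the hg38 build and limma, with versions not given in the sources used here. The deposited values are TPM per gene, 1 table per line, a unit taken from the values themselves, and 0 of them are exactly 0. TPM keeps no read number, so the depth of a single library is unknown and no counting interval could be given. Low values are estimates from few reads.

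Groups and replicates come from the labels. log2(TPM + 1) was fitted over all genes of each line with limma 3.58.1 in R 4.3.3 (lmFit, eBayes, two-sided, Benjamini-Hochberg over all genes, no filter, no block). The interaction of line and genotype was fitted likewise over the genes in both tables. Adjusted p are from these fits, or from the same fit under an alternative where one is named, and the 3 fits were tested on simulated data. Some genes of the lists are not reported here. Members and lists were chosen with earlier results of these data known. Genes named are members changed in either line, the TIMPs, *MMP2*, *MMP9*, *MMP14*, *ADAM10*, *ADAM17*, members at 10 TPM or more in a group mean, changed regulators and *ANGPTL4*. Positions are from GENCODE on hg38, promoters from RefSeq. In neighbour-centred values, the median deviation of up to 25 flanking genes in each direction, with a mean log2 of 1 or more, was subtracted, and chromosome medians used genes with a mean log2 above 2. Alternatives were a pseudocount of 0.1, a filter on means under 1 TPM, trend and robust options, quantile normalization, median ratio scaling, the adjusted p alone, the replicate block, neighbour-centred values, CAKi-1 A4KO replicates 2, 3 and 5 alone, and each library left out. Protein sequences and other experiments of the study were not used here.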

Additional observations from a re-analysis of the deposited data

Results flagged for a closer look

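A single library stood apart from its group in 5 of 94 groups examined, all of CAKi-1, where chance gives about 1 in 20. Groups of the other line hold too few libraries for this check and were not examined. CAKi-1 WT replicate 4 held 3.39 TPM of *MMP19*, against 2.08 to 2.20 in the other WT libraries, and 14.5 TPM of *TSPAN5*, against 17.4 to 17.9. CAKi-1 WT replicate 3 held 1.17 TPM of *PCSK5*, against 1.45 to 1.5. The ADAM sum was 500.4 TPM in CAKi-1 WT replicate 2, against 515 to 517.3, and the TIMP sum was 700.3 TPM in CAKi-1 WT replicate 1, against 659.5 to 661.5.

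The A4KO effect differed between the lines by the interaction test for 12 members, each lower in 786O, beside 12.8% of all genes, or 7.95% in that direction. By the adjusted p alone the split was 8 higher and 18 lower, and with a pseudocount of 0.1 it was 2 higher and 15 lower. Given as the 786O effect minus the CAKi-1 effect in log2(TPM + 1), the differences among MMPs were -5.19 for *MMP2*, -2.46 for *MMP7*, -2.39 for *MMP14*, -1.60 for *MMP9* and -1.02 for *MMP25*, which was -0.69 with quantile normalization and -0.72 without CAKi-1 A4KO replicates 1 and 4. Among ADAM and ADAMTS genes they were -4.55 for *ADAMTS12*, -4.42 for *ADAMTS5*, -2.22 for *ADAMTS9*, -1.74 for *ADAM12* and -1.32 for *ADAMTS13*. Among the inhibitors they were -1.80 for *TIMP4* and -1.23 for *TIMP1*. *TIMP4* was at 0.574 to 1.035 TPM in CAKi-1 WT, where log2(TPM + 1) could not show a fall like that in 786O.

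The effect also differed for 15 of the 51 regulators measured in both lines, or 29.4%, beside 12.8% of all genes. Among them are 13 of the 20 regulators named in the text, which were named because they changed in a line. *ETS2*, at 1.11, and *ETV1*, at -1.02, also differed and are named after their values were seen. *ETS2* was at 0.996 without CAKi-1 A4KO replicates 1 and 4, short of the size required. *ETV1* fell short in 9 alternatives, 6 of them with a single library left out, at -0.79 to -0.98. The effect was higher in 786O for *PCSK5* by 1.69 and *FOSL1* by 1.55, the last at 0.998 without CAKi-1 A4KO replicates 1 and 4. It was lower in 786O for *PAPLN* at -3.93, *PAPPA* at -2.51, *TFPI2* at -2.49, *TSPAN15* at -2.14, *FOS* at -1.79, *ADAMTSL1* at -1.70, *TLL2* at -1.66, *FOSB* at -1.60, *BMP1* at -1.47, *PCOLCE2* at -1.36 and *PLAT* at -1.27. With neighbouring genes taken off *FOS* was at -0.91. *FOS*, *FOSB* and *TLL2* were at 0.641 to 0.806, 0.546 to 1.35 and 0.399 to 0.453 TPM in CAKi-1 WT. At such levels log2(TPM + 1) could not show falls in CAKi-1 like those in 786O.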

How the results depend on the processing

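Values of named genes were sorted by direction and by whether they met the joint rule of size and adjusted p. Over all alternatives, 1291 kept both, 15 lost the joint call and 41 gained it in the same direction, and 8 changed sign. A value that crossed the adjusted p alone counts as kept, as for *MMP14* in 786O with neighbouring genes taken off. Most of the 41 come from the adjusted p alone, which drops the size rule and leaves values and p as they were. The others are *MMP9* in 786O and *PCOLCE2* in CAKi-1. None of the 8 that changed sign had reached a change of 1. Neighbour-centred values gave 0.14 for *TLL2* in CAKi-1 and 0.076 for *ADAMTS9*, 0.12 for *FOSL1* and -0.064 for *FOSL2* in 786O. CAKi-1 A4KO replicates 2, 3 and 5 alone gave -0.051 for *MMP2*. *ADAM17* in CAKi-1 was 0.017 without WT replicate 4 and 0.015 without A4KO replicate 3, and *ADAMTS1* was -0.033 without A4KO replicate 3, within ranges of -0.22 to 0.017 and -0.033 to 0.26 over the libraries left out. In CAKi-1 *FOSL2* was 0.92 without WT replicate 1, 0.95 without WT replicate 2 or A4KO replicate 1 and 0.93 without A4KO replicate 4, below the size required. The cause was not tested.

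With a pseudocount of 0.1, 15 members changed in 786O in place of 9 (2 higher, 13 lower), and over all genes 1077 changed in CAKi-1 in place of 543, 2095 in 786O in place of 1233 and 3005 in the interaction in place of 1954. By the adjusted p alone, 24 members in CAKi-1, 33 in 786O and 26 in the interaction passed, and 34 and 40 regulators, the rule on size being dropped. With 1 library left out in turn, 7 members changed in CAKi-1 in each case, 8 to 9 in 786O and 11 to 13 in the interaction, and 7 to 10 regulators in CAKi-1 and 14 in 786O.

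The replicate numbers did not pair the libraries. Deviations from the group means correlated at -0.066, 0.13, -0.047 and 0.15 for the same numbers in CAKi-1 and at -0.056, 0.011 and 0.014 in 786O. With the replicate block, 7 members changed in CAKi-1, 9 in 786O and 12 in the interaction, and 9 regulators in CAKi-1 and 14 in 786O, the added gene being *PCOLCE2*, beside 3.7%, 7.62% and 13.5% of all genes in CAKi-1, 786O and the interaction. Values under 1 TPM rest on few reads, and a change there depends on the pseudocount.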
